A study of Homo sapiens with 6 samples.

Results

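The genes described here encode the proteins of the cytosolic ribosome. They were chosen by name, as RPL or RPS followed by a number with at most a short paralog suffix, together with RPSA, RPLP0, RPLP1 and RPLP2, and 85 of the 58735 genes of the deposited table met this rule. Of these, 77 are core members and 8 are paralogs whose names end in L or L1. The level of mRNA was measured by RNA-seq in PANC-1, a human cell line established from a pancreatic ductal adenocarcinoma. Control cells (si-NC, n = 3) received a control siRNA, and METTL16-depleted cells (si-METTL16, n = 3) received siRNA against METTL16, an RNA methyltransferase. The methods call the cells of both groups stably transfected. Another label of the control libraries reads WT, although their titles name the control siRNA. The methods describe biological triplicates of 1 cell line, and neither the titles nor the text say which siRNA against METTL16 was used, or whether the number in a si-METTL16 title names the replicate or the siRNA.

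The cytosolic ribosome is built from a small subunit, which reads the mRNA, and a large subunit, which joins the amino acids. Proteins named RPS belong to the small subunit and those named RPL to the large subunit, each normally in a single copy, while the acidic proteins RPLP1 and RPLP2 form pairs on RPLP0 in a stalk that recruits translation factors. Most of these mRNAs begin with a terminal oligopyrimidine (TOP) tract, a C followed by further C or T bases, through which mTOR and LARP1 control their translation and stability. Many of the genes also carry small nucleolar RNAs (snoRNAs) in their introns, and many have processed pseudogenes elsewhere in the genome.

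The start sites of members whose level is described below are shown because the TOP tract is the sequence that the family shares. Each sequence runs 5′ to 3′ from 20 bases before to 20 bases after the RefSeq start of transcription (GRCh38.p14), and capitals mark a C at most 5 bases from the start with the unbroken C and T run that follows it, where that run holds at least 4 further bases. RPL22 lies at chr1:6199576-6199615, RPL3 at chr22:39319604-39319643 and RPS25 at chr11:119018324-119018363, each on the minus strand, and RPS12 lies at chr6:132814549-132814588 on the plus strand. RPSA lies at chr3:39406700-39406739 on the plus strand and RPL22L1 at chr3:170870176-170870215 on the minus strand. RPL26 lies at chr17:8383174-8383213 on the minus strand, while the site shown for RPL26L1 is the upstream one of those listed, at chr5:172958709-172958748 on the plus strand. RPS27 lies at chr1:153990742-153990781 on the plus strand and RPS27L at chr15:63157458-63157497 on the minus strand.
RPL22: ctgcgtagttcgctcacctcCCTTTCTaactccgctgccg
RPL3: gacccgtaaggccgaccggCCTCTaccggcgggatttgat
RPS25: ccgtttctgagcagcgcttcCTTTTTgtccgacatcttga
RPS12: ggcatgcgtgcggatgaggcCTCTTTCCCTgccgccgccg
RPSA: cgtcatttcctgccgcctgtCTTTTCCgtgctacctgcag
RPL22L1: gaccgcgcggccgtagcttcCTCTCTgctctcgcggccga
RPL26: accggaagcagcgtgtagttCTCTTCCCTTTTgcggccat
RPL26L1: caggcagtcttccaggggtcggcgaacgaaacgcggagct
RPS27: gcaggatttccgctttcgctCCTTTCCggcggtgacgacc
RPS27L: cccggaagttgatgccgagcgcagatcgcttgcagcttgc

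Of the 85 members, 68 matched the RefSeq table of start sites by symbol. A C followed by at least 4 pyrimidines, searched on the transcribed strand only, stood exactly at an annotated first base of 47 of these 68 genes (69.1%), against 5.1% of all 27305 genes of the table. Within 5 bases of the start, it was found in 55 members (80.9%) and in 25.2% of all genes. Of the core members, 46 of 62 (74.2%) held it at the first base, and of the paralogs 1 of 6 (16.7%), which was RPL22L1. Neither of the start sites of RPL26L1 nor that of RPS27L held it in this window. Among the members described below as lower after METTL16 depletion, 8 of the 15 with a start site held it at the first base, compared with 7 of 10 that were higher and 32 of 42 that passed no test. These shares describe the annotated starts and not the starts used in PANC-1 cells.

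The libraries held between 15725298 and 18054436 counts, so that 3 counts stood for at most 0.191 CPM (counts scaled to a common library total, here after TMM scaling). METTL16 was at 91.5, 96.7 and 101 CPM in si-NC and at 34.8, 33.9 and 34.9 CPM in si-METTL16 libraries (log2 fold change -1.48 ± 0.07 SE, adjusted p = 8.34e-05), without overlap of the groups. Of the 15089 genes that passed the filter on low counts, 35.9% were called, meaning an adjusted p under 0.05 in edgeR's quasi-likelihood test, of which 18.4% were higher and 17.5% lower in si-METTL16. CPM values of the groups did not overlap for 50.9% of genes. Of the ductal and epithelial markers 6 of 8 reached a mean of 1 FPKM, KRT7 and MUC1 not, while none of the 6 acinar, 4 endocrine or 3 endothelial markers did and of 5 immune markers CD68 did. Of the 6 fibroblast markers, COL1A1 and COL3A1 reached it, and the summed FPKM of the list was between 25.9 and 30.0 in si-NC and between 62.4 and 66.2 in si-METTL16. Its part in the results below was not tested.

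After METTL16 depletion, single ribosomal protein genes were called in both directions, in a share near that of all genes. Of the 85 members, 83 passed the filter. Among these, 12 were higher and 18 lower in si-METTL16, in total 36.1% against the 35.9% of all genes tested. The share of higher members was 14.5% against 18.4% of all genes, and that of lower members 21.7% against 17.5%. CPM values of the groups did not overlap for 39 members (47%, against 50.9% of all genes). Counts of calls depended on single libraries: without si-NC replicate 3, 6 members were higher and 14 lower, in total 24.1% against 26.9% of all genes in the same fit.

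The log2 fold changes of the members were spread less widely than those of all genes tested. Their median was -0.0063, against -0.0045 over all genes tested, and their SD was 0.34 against 0.63. A log2 fold change within 0.25 of 0 was found for 57 members (68.7%), compared with 40% of all genes. The median SE was 0.07 over the members and 0.14 over all genes. Of the small subunit, 6 of 31 core genes were higher and 6 lower (19.4% each), and of the large subunit 4 of 46 core genes were higher (8.7%) and 11 lower (23.9%), beside 18.4% and 17.5% of all genes.

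**Figure D1:**
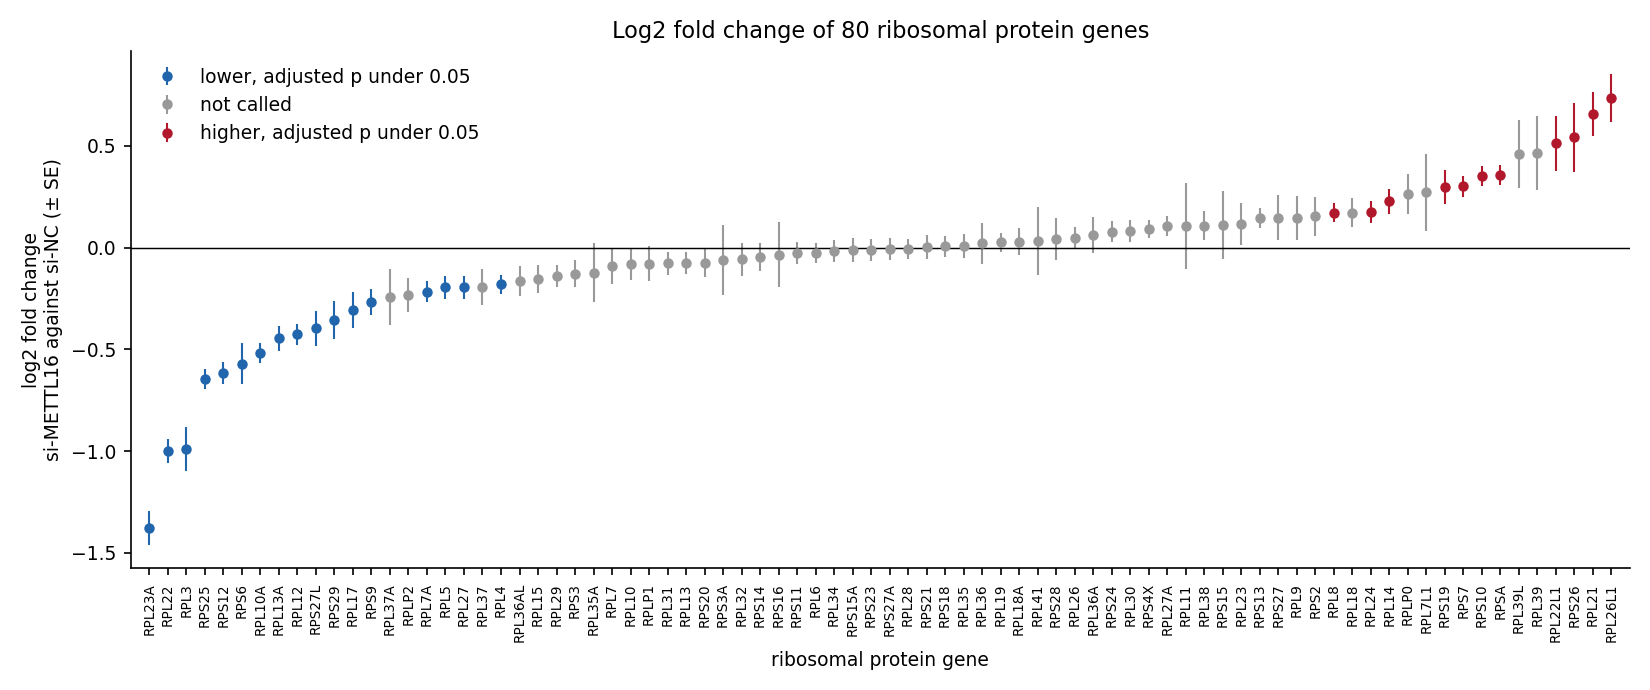
Log2 fold change of si-METTL16 against si-NC (y axis) for 80 ribosomal protein genes (x axis, sorted), with bars for 1 SE and colours for the edgeR call at an adjusted p under 0.05. Most genes lie within 0.25 of 0, with RPL23A, RPL22 and RPL3 lowest at -1.38, -1.0 and -0.99 and RPL26L1 highest at 0.74.

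Per length, RPS16, a small-subunit protein, had the highest level of the family, its FPKM being 667 ± 138 in si-NC and 642 ± 92.5 in si-METTL16 libraries (mean ± SD, n = 3 each). It was followed by RPS18 with a mean of 279 and RPS12 with 262 FPKM over the 6 libraries, and RPL9 was the lowest member that passed the filter, at 1.70 FPKM, with 93.2% of its reads in the pseudogene rows described below. The FPKM of a member depended on the gene length used by the authors, which was a median of 5.59 times the length of the MANE Select transcript in GENCODE v44 (range 1.05 to 38). For 38 of the 85 members, the length implied by counts and FPKM exceeded the whole span of the gene. Divided by the MANE Select length instead, RPS16 was still first at 5519 CPM per kilobase, RPS24 came next at 2081 and RPS18 followed at 1884. RPS12 was then at position 27 with 484 and RPL9 at position 79 with 20.1. Of the paralogs, RPL10L and RPL3L failed the filter. RPL10L, known from testis, had at most 1 count in any library, and RPL3L, known from striated muscle, had 1, 0 and 0 counts in si-NC and 0, 1 and 6 counts in si-METTL16.

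RPL23A, which lies at the exit of the tunnel for the growing chain, was the member that fell most. It was at 74.8, 68.3 and 71.0 CPM in si-NC and at 25.4, 28.5 and 28.6 CPM in si-METTL16. Every si-METTL16 library was below every si-NC library, at 38.5% of the control level (log2 fold change -1.38 ± 0.08, adjusted p = 0.000114). RPL22, an RNA-binding protein on the surface of the large subunit, fell to 50.0%. Its values were 434, 459 and 431 CPM in si-NC and 209, 229 and 225 CPM in si-METTL16 (log2 fold change -1.0 ± 0.06, adjusted p = 0.000111). The groups were far apart and each was narrow. RPL3, a large-subunit protein that reaches toward the peptidyl transferase centre, was at 1012, 855 and 981 CPM in si-NC and at 464, 548 and 422 CPM in si-METTL16. It fell to a similar extent without overlap (log2 fold change -0.99 ± 0.11, adjusted p = 0.000685). RPL23A, RPL22 and RPL3 had 87.7%, 41.6% and 15.8% of their reads in the pseudogene rows described below. The exons of RPL22 share 230 bases with another gene on the same strand, ENSG00000285629. Those of RPL23A share 12 bases with TLCD1 and 155 bases with a long non-coding gene on the opposite strand, and reads from such bases cannot be told apart if strand was not used in counting.

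A further tier of members fell to between 63.9% and 73.4% of the control level. RPS25, needed for initiation at several viral internal entry sites, was at 632, 664 and 650 CPM in si-NC and at 428, 407 and 409 CPM in si-METTL16 (log2 fold change -0.65 ± 0.05, adjusted p = 0.000186). RPS12 of the small subunit was at 295, 295 and 294 CPM in si-NC and at 184, 202 and 191 CPM in si-METTL16 (-0.61 ± 0.05, adjusted p = 0.000329). For both, the libraries of a group stood close together and the groups apart. RPS6, the small-subunit protein that S6 kinases phosphorylate downstream of mTOR, varied more, with 758, 863 and 710 CPM in si-NC and 463, 538 and 569 CPM in si-METTL16 (-0.57 ± 0.10, adjusted p = 0.00462). RPL10A of the L1 stalk was at 603, 603 and 601 CPM in si-NC and at 404, 434 and 426 CPM in si-METTL16 (-0.52 ± 0.05, adjusted p = 0.0004). RPL13A, which has a further role in silencing inflammatory mRNAs, went from 442, 397 and 410 CPM to 320, 295 and 302 CPM (-0.45 ± 0.06, adjusted p = 0.00176). None of these 3 genes overlapped between the groups either. RPL13A had 58.6% of its reads in the pseudogene rows described below, and the others of this tier 3.04% or less. The exons of RPS25 share 42 bases with CENATAC and those of RPS6 share 282 bases with ENSG00000273226, both on the opposite strand, and those of RPL13A share 30 bases with a long non-coding gene on the same strand. The other 10 lower members had log2 fold changes between -0.43 for RPL12 and -0.18 for RPL4.

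**Figure D2:**
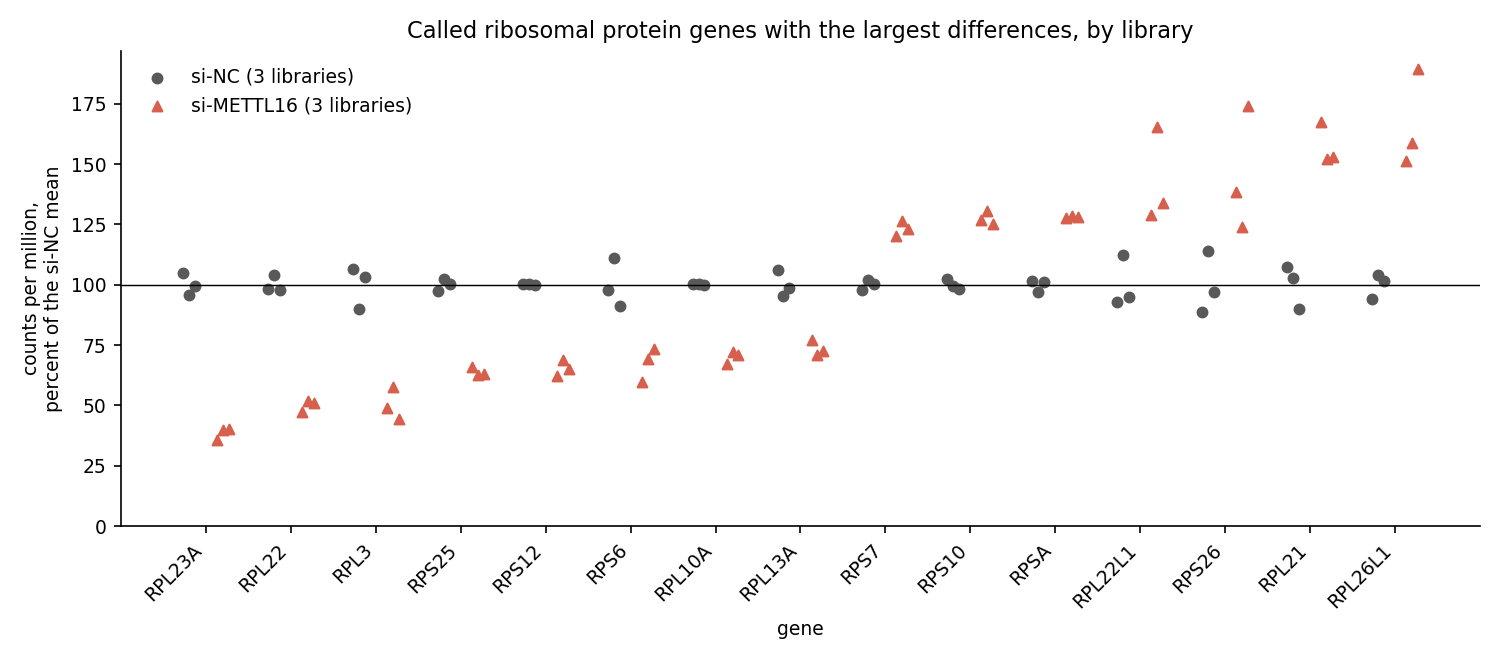
CPM of each library as a percent of the si-NC mean (y axis, from 0) for 8 members called lower and 7 called higher with the largest differences and non-overlapping groups (x axis), circles for si-NC and triangles for si-METTL16. The triangles lie below every circle of the same gene on the left, from RPL23A to RPL13A, and above them on the right, from RPS7 to RPL26L1.

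The largest increases were found in members with few counts. RPL26L1, a close paralog of RPL26, rose most, from 13.4, 14.8 and 14.5 CPM in si-NC to 21.6, 22.6 and 27.0 CPM in si-METTL16 (log2 fold change 0.74 ± 0.12, adjusted p = 0.00301). RPL21 of the large subunit was at 14.7, 14.1 and 12.3 CPM in si-NC and at 23.0, 20.8 and 21.0 CPM in si-METTL16 (0.66 ± 0.11, adjusted p = 0.00351). In both, every si-METTL16 library was above every si-NC library. RPS26, which contacts the mRNA upstream of the start codon, was at 7.99, 10.3 and 8.73 CPM in si-NC and at 12.4, 11.2 and 15.6 CPM in si-METTL16 (0.54 ± 0.17, adjusted p = 0.0412). The groups of RPS26 were close, at 10.3 against 11.2 CPM, and the call was lost without si-NC replicate 1 (adjusted p = 0.118), si-NC replicate 3 (0.109), si-METTL16 replicate 1 (0.0748) or si-METTL16 replicate 3 (0.112). RPL21 and RPS26 had 97.7% and 87.5% of their reads in pseudogene rows, as described below.

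Among the more abundant members, RPSA, the laminin-receptor protein of the small subunit, rose most evenly. It was at 303, 289 and 302 CPM in si-NC and at 380, 383 and 381 CPM in si-METTL16 (log2 fold change 0.36 ± 0.05, adjusted p = 0.00142). Its libraries were nearly equal within each group and the groups were apart. RPS10, which is ubiquitinated on collided ribosomes, rose from 199, 194 and 191 CPM to 247, 254 and 244 CPM (0.35 ± 0.05, adjusted p = 0.00191). RPS7 rose from 145, 151 and 149 CPM to 178, 188 and 183 CPM (0.30 ± 0.05, adjusted p = 0.0043). In these genes too the groups did not overlap. RPSA and RPS7 had 66.9% and 68.7% of their reads in the pseudogene rows described below. The exons of RPS10 share 494 bases with another gene on the same strand, RPS10-NUDT3.

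Paralogs and core partners are given side by side. RPL22L1, which can replace RPL22 in the large subunit, was at 15.5, 18.7 and 15.9 CPM in si-NC and at 21.5, 27.6 and 22.4 CPM in si-METTL16. It rose (log2 fold change 0.51 ± 0.13, adjusted p = 0.0223) while RPL22 fell, and for every 100 counts of RPL22 there were 3.57, 4.08 and 3.68 counts of RPL22L1 in si-NC and 10.3, 12.1 and 9.95 in si-METTL16. The call of RPL22L1 was lost without si-NC replicate 1 (adjusted p = 0.0723), si-NC replicate 3 (0.0742) or si-METTL16 replicate 2 (0.0604). RPL26L1 rose without a call for RPL26 (0.05 ± 0.05, adjusted p = 0.522), which was between 455 and 485 CPM in si-NC and between 468 and 502 CPM in si-METTL16. The exons of RPL26 share 345 bases with another gene on the same strand, ENSG00000263809.

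RPS27L, a paralog of RPS27, went the other way from RPL22L1 and RPL26L1. It fell from 54.6, 58.2 and 52.3 CPM in si-NC to 42.2, 44.5 and 38.6 CPM in si-METTL16, without overlap (log2 fold change -0.40 ± 0.09, adjusted p = 0.0107). Its core partner RPS27 was at 17.0, 15 and 16.9 CPM in si-NC and at 19, 16.3 and 19 CPM in si-METTL16 and was not called (0.15 ± 0.11, adjusted p = 0.333). Of the other pairs with both genes tested, none had a called gene. RPL39L, an exit tunnel protein known from testis, had a log2 fold change (± SE) of 0.46 ± 0.17 (adjusted p = 0.07) and its partner RPL39 one of 0.47 ± 0.18 (adjusted p = 0.083). RPL7L1, a nucleolar assembly protein, ranged from 141 to 229 CPM within si-NC alone and was at 0.27 ± 0.19 (adjusted p = 0.301), with RPL7 at -0.09 ± 0.08. RPL39 and RPL7 had 95.5% and 85.9% of their reads in pseudogene rows. Both were called when these rows were summed with them, as described below. RPL36AL and RPL36A, which encode nearly the same protein, were at -0.16 ± 0.08 and 0.06 ± 0.09.

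**Figure D3:**
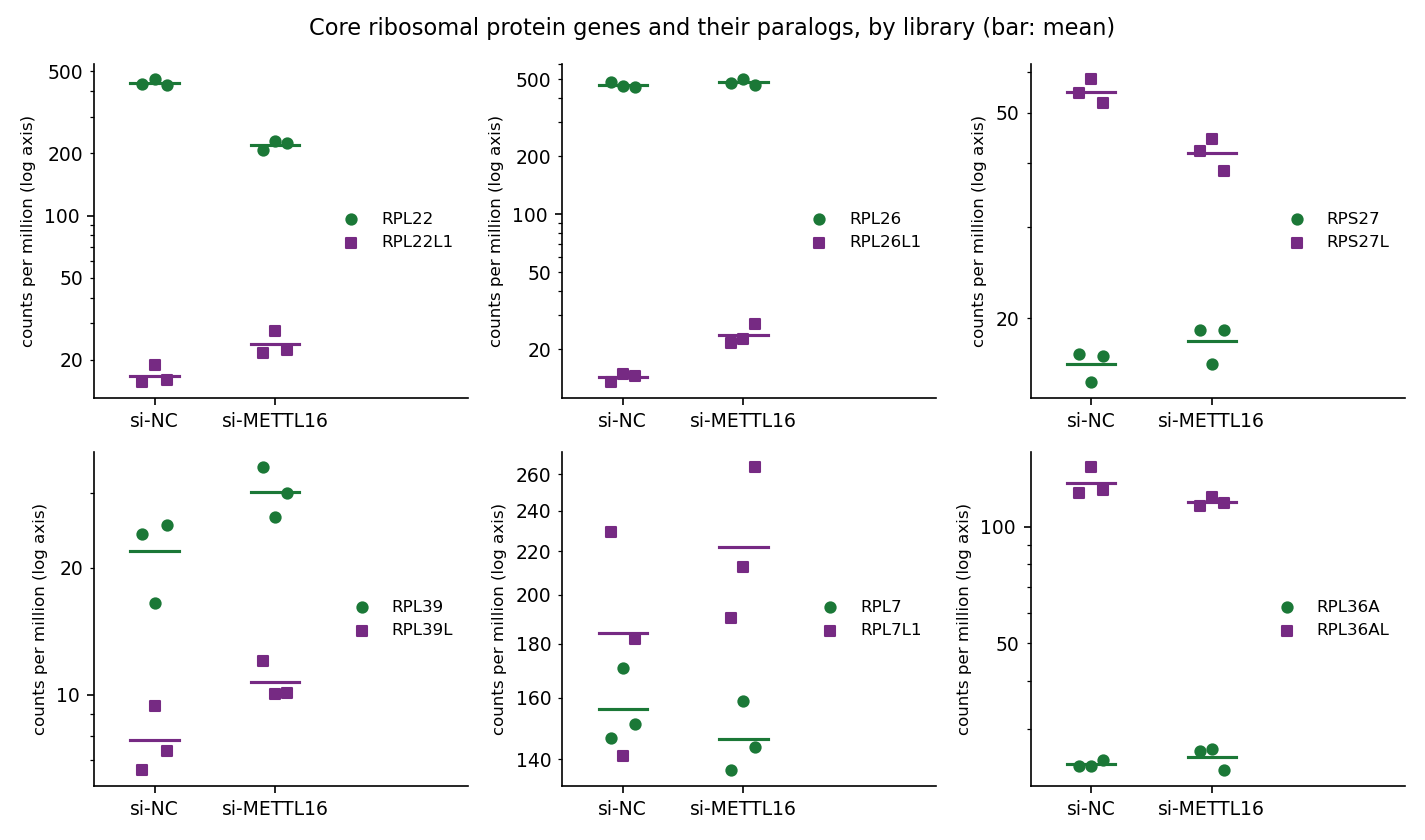
CPM per library (y axis, log scale) of 6 core genes (circles) and their paralogs (squares) in si-NC and si-METTL16, with a bar at the mean of each group of 3. RPL22 falls while RPL22L1 rises, RPL26L1 rises with RPL26 not called, and RPS27L falls with RPS27 not called.

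The proteins of the stalk did not pass the test. RPLP0, the base of the stalk and a common reference gene in quantitative PCR, was at 689, 589 and 572 CPM in si-NC and at 791, 770 and 659 CPM in si-METTL16. The groups overlapped and the log2 fold change was 0.26 ± 0.10 (adjusted p = 0.0727), and RPLP0 was called without si-NC replicate 1 (adjusted p = 0.0325) or si-METTL16 replicate 3 (0.0343). RPLP2 was at 659, 684 and 664 CPM in si-NC and at 498, 594 and 619 CPM in si-METTL16 (-0.23 ± 0.08, adjusted p = 0.0686). Here the groups did not overlap, and without si-METTL16 replicate 3 it was called lower (adjusted p = 0.0464). RPLP1 lay at -0.08 ± 0.09 with overlapping groups.

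RPL5 and RPL11 bind the 5S rRNA and, when free of the ribosome, inhibit MDM2, a ubiquitin ligase. RPL5 was at 297, 304 and 289 CPM in si-NC and at 263, 269 and 246 CPM in si-METTL16 (log2 fold change -0.20 ± 0.06, adjusted p = 0.0302). It did not overlap, but the call was lost on leaving out any library except si-METTL16 replicate 2, with adjusted p values from 0.0577 to 0.0936. RPL11 was at 608, 652 and 559 CPM in si-NC and at 709, 818 and 433 CPM in si-METTL16 (0.11 ± 0.21, adjusted p = 0.722). Replicate 3 of si-METTL16 stood below all others and replicates 1 and 2 above them, and without replicate 3 RPL11 was called higher (log2 fold change 0.33, adjusted p = 0.0397). RPS27A, made as a fusion with ubiquitin, was at 278, 267 and 271 CPM in si-NC and 267, 283 and 262 CPM in si-METTL16, with overlapping groups (-0.01 ± 0.05, adjusted p = 0.94).

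Replicates of a group mostly lay close together. The ratio of the highest to the lowest CPM within a group had a median of 1.1 over the 83 members in both groups. It was over 1.4 in si-NC for 7 members, among them RPL35A, RPL39, RPL39L, RPL7L1, RPS16 and RPS3A, and in si-METTL16 for 6, among them RPL11, RPL37A, RPL41, RPS15 and RPS26. Of these, only RPS26 was called.

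Many reads that carry ribosomal protein sequence were counted in processed pseudogenes, which are copies of the spliced mRNA. The table held 1149 pseudogene rows named after a member, of which 445 had at least 1 count and 108 passed the filter. Of the 108, 10 were higher and 21 lower (28.7% called, against 35.9% of all genes tested), with a median log2 fold change of -0.10. For RPL23A, 87.7% of the summed counts stood in such rows. The largest, RPL23AP42, held 8422, 8117 and 8136 counts in si-NC and 2406, 2684 and 3220 in si-METTL16 (log2 fold change -1.53 ± 0.08, adjusted p = 9.39e-05). It fell together with RPL23A, and it is not known which of these reads came from the pseudogene itself. RPL22P1 fell by 0.74, RPL3P4 by 1.01, RPL13AP5 by 0.49, RPL12P16 by 0.42 and RPL10AP6 by 0.76 on the log2 scale, each with its gene, and RPSAP58 rose by 0.39 with RPSA. The next largest row of RPSA, RPSAP15, was not called (0.12 ± 0.16, adjusted p = 0.576), while RPSAP12 was called higher at 0.23 ± 0.07.

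Of 59 pseudogene rows with at least 1000 counts, which belong to 37 members, 18 were called in the same direction as a called member and 0 in the opposite direction. A further 6 were called while the member was not, and 11 were not called although the member was. Of all genes tested, 35.9% were called. Reads of a gene and of its pseudogene rows can come from the same mRNA, so their shared direction is not independent evidence. When the counts of each member were summed with its pseudogene rows, 28 of the 30 calls were kept. RPL21 was no longer called (log2 fold change 0.14, adjusted p = 0.0706), its largest row RPL21P75 being at 0.14 ± 0.05 (adjusted p = 0.0808), and RPL24 was lost as well. RPL10, RPL7, RPLP0 and RPL39 were gained. RPS26 had 2 rows that were called higher with it, RPS26P6 at 0.42 ± 0.08 and RPS26P3 at 0.70 ± 0.08.

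**Figure D4:**
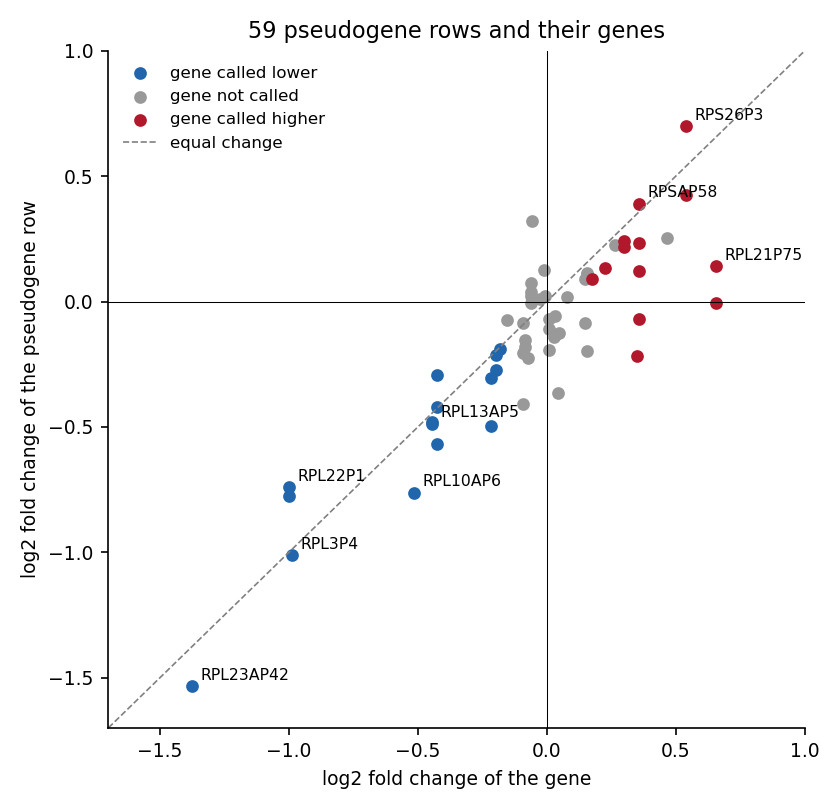
Log2 fold change of 59 pseudogene rows with at least 1000 counts (y axis) against that of the gene they are named after (x axis), coloured by the call of the gene, with a dashed line of equal change. RPL3P4 at -1.01 lies near the line, RPL22P1 at -0.74 above it, and RPL23AP42 at -1.53 and RPL21P75 at 0.14 below it. Of the 59 rows, RPL23AP2 at -1.89 lies beyond the lower end of the y axis and is not seen.

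The members that host several snoRNAs were lower. This grouping was chosen after the values were seen, so it is given without a test. In GENCODE v44, 28 of the 83 members held a snoRNA within an intron of the MANE Select transcript, and of these 2 were higher and 10 lower (7.14% and 35.7%, against 18.4% and 17.5% of all genes), with a median log2 fold change of -0.08. Of the 55 members without an intronic snoRNA, 10 were higher and 8 lower (18.2% and 14.5%), with a median of 0.02. The lower calls gathered in the 8 members with 3 or more snoRNAs, which include RPL23A (SNORD4A, SNORD4B, SNORD42A and SNORD42B), RPL3, RPS12, RPL13A, RPL17, RPL7A and RPL4. All 8 were called lower, against 17.5% of all genes tested, with a median of -0.38. Members with 1 snoRNA had 0 of 11 higher and 1 lower, and those with 2 had 2 of 9 higher, RPSA and RPL21, and 1 lower.

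Of the 8 hosts, RPL17 went from 116, 141 and 118 CPM in si-NC to 101, 103 and 98.6 CPM in si-METTL16. Of the 614 bases of its MANE Select transcript, 595 are shared with another gene on the same strand, RPL17-C18orf32. RPL7A went from 412, 413 and 403 CPM to 347, 368 and 342 CPM, and RPL4, with the most snoRNAs of the family, from 1480, 1384 and 1395 CPM to 1284, 1232 and 1241 CPM. The groups of RPL17, RPL7A and RPL4 did not overlap, though the log2 fold changes of these 3 genes, from -0.31 to -0.18, were small. Without si-METTL16 replicate 3 none of the 3 was called and 4 of the 8 hosts were, and the other libraries left out one at a time gave 6 to 8. Of 12 genes outside the family with 3 or more intronic snoRNAs, 3 were higher and 2 lower, with a median of 0.18. These shares were 25% and 16.7%, against 18.4% and 17.5% of all genes tested. The higher ones were EIF4A1 at 0.43, EIF4A2 at 0.50 and KANSL2 at 0.65, and the lower ones NOP58 at -0.30 and NCL at -0.29. RPL22, RPS25, RPS6 and RPL10A fell without an intronic snoRNA.

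**Figure D5:**
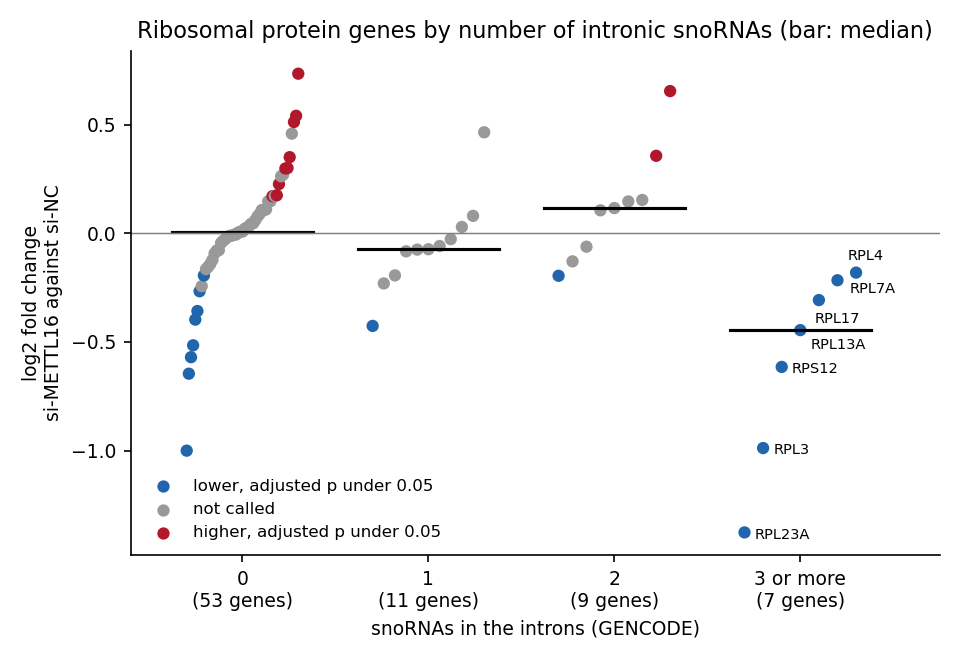
Log2 fold change of 80 members (y axis) by the number of snoRNAs in their introns (x axis), with a bar at the median of the genes shown and colours for the call. The 7 genes shown with 3 or more snoRNAs lie below 0, from RPL23A at -1.38 to RPL4 at -0.18, whereas genes with none spread to both sides of 0.

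Other features of the members are described by their correlation with the log2 fold change. Over the 83 members, the Spearman correlation with the log2 fold change was -0.10 for transcript length, 0.05 for the percent of reads in pseudogene rows, -0.30 for the mean FPKM and -0.27 for the number of intronic snoRNAs. The members share libraries and the snoRNA number is 0 for most of them. Of 10 members whose exons overlap a protein-coding gene on the opposite strand, 2 were called lower (RPL23A and RPS25) and 0 higher. These shares were 20% and 0%, against 17.5% and 18.4% of all genes tested.

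Of all counts, the members held 3.48%, 3.63% and 3.43% in si-NC and 3.21%, 3.32% and 3.34% in si-METTL16 libraries, so that every si-METTL16 library was below every si-NC library. The means were 3.52% ± 0.10 and 3.29% ± 0.07 (SD, n = 3), a difference of -0.23 percentage points (exact two-sided permutation p = 0.1, the smallest that 3 against 3 libraries can give). The pseudogene rows held a further 1.05% ± 0.02 in si-NC and 0.97% ± 0.01 in si-METTL16 (exact permutation p = 0.1). The share weighs each member by its counts, whereas the median log2 fold change of the members was -0.0063. A lower share can come from fewer ribosomal protein mRNAs or from more of other RNAs, which cannot be told apart in bulk libraries.

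Of 17 other TOP mRNAs, which encode translation factors and a few abundant proteins, 2 were higher and 5 lower (41.2% called, against 35.9% of all genes tested), with a median log2 fold change of -0.07. The translation initiation factor subunit EIF3F rose (0.67 ± 0.07, adjusted p = 0.000482), while TPT1, an abundant growth-related protein, fell (-0.48 ± 0.07, adjusted p = 0.00171) and EIF3H fell (-0.39 ± 0.06, adjusted p = 0.00287). Of 11 elongation and termination genes, 2 were higher and 3 lower (45.5% called). Among these, EEF2K, the kinase that inhibits elongation factor EEF2, fell by 0.59 and EEF1A2 by 0.72 on the log2 scale, and GSPT1, a termination factor, rose by 0.41. FAU, which encodes a ribosomal protein fused to a ubiquitin-like protein, was not called, at -0.04 ± 0.06.

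Of 16 regulators of TOP mRNAs and mTOR, 5 were higher and 4 lower, in total 56.2% called beside 35.9% of all genes. LARP1, which binds the TOP tract, was at 451, 418 and 467 CPM in si-NC and at 491, 438 and 419 CPM in si-METTL16, and the groups overlapped (log2 fold change 0.01 ± 0.08, adjusted p = 0.906). RPS6KB1, a kinase of RPS6, rose by 0.58 and AKT1S1, an inhibitory subunit of mTORC1, by 0.41 on the log2 scale. TSC1, another inhibitor of the pathway, fell by 0.65. RPS6 itself, the substrate of RPS6KB1, was among the lower members above.

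Of 19 chaperones and assembly factors of ribosomal proteins, 7 were higher (36.8%, against 18.4% of all genes) and 3 lower (15.8%, against 17.5%), with a median log2 fold change of 0.12. HEATR3, which brings RPL5 into the nucleus, fell from 25.2, 23.2 and 23.2 CPM in si-NC to 8.23, 9.55 and 9.68 CPM in si-METTL16 (-1.38 ± 0.11, adjusted p = 0.000214). SBDS and EIF6, which act in the last steps of large-subunit maturation, rose by 0.75 and 0.57 on the log2 scale. Among 7 genes for the turnover of surplus or faulty ribosomal proteins, 2 were higher, UBE2O at 0.71 and USP10 at 0.61, and 1 was lower, HUWE1 at -0.18 (42.9% called, against 35.9% of all genes).

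In the list for the surveillance of ribosome assembly, 3 of 8 genes were higher and 1, RPL5, was lower (50% called, against 35.9% of all genes). RRS1, which brings RPL5 and RPL11 to the precursor of the large subunit, rose from 58.4, 61.1 and 57.5 CPM to 106, 106 and 105 CPM (log2 fold change 0.85 ± 0.06, adjusted p = 0.000161). Its groups were narrow and far apart. BOP1, a large-subunit assembly factor, rose by 0.41 on the log2 scale, and MDM2 rose from 66.9, 66.9 and 66.5 CPM to 86.7, 87.5 and 74.9 CPM (0.31 ± 0.08, adjusted p = 0.019).

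Of the transcription factors linked to ribosomal protein promoters, 7 of 8 were tested, MYCN not, and 1 was higher and 2 lower (42.9% called, against 35.9% of all genes). MYC, an activator of ribosome production, rose from 8.34, 21.0 and 4.62 CPM in si-NC to 82.5, 72.4 and 56.2 CPM in si-METTL16 (log2 fold change 2.64 ± 0.49, adjusted p = 0.00607). Every si-METTL16 library was above every si-NC library, although the si-NC values spread widely. Its binding partner MAX fell from 25.6, 26.4 and 30.8 CPM to 11.5, 11.3 and 15.4 CPM (-1.12 ± 0.15, adjusted p = 0.00157), and SP1 fell by 0.28 on the log2 scale.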

How the data were processed

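The authors deposited 1 table with raw counts per gene for each of the 6 libraries and FPKM values, which are these counts per length and per total count. The submitters' processing notes name HISAT2 2.0.4, StringTie 1.3.0 and GRCh38 (hg38), while the counting program, the annotation release and the use of strand are not given in the sources used here. Library preparation used a kit for mRNA. Groups and replicate numbers were taken from the titles.

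Counts were filtered with filterByExpr (minimum count 10, minimum total 15), scaled by TMM and compared over all 15089 remaining genes with R 4.3.3 and the quasi-likelihood test of edgeR 4.0.16, p-values being adjusted after Benjamini and Hochberg. The study names limma for this comparison, and limma 3.58.1 on voom and on FPKM values and DESeq2 1.42.0 were run as alternatives. Scripts were tested on simulated data. The members and the gene lists were chosen with earlier results of these data known. The named genes were members of fixed roles, all paralogs with their partners, the 8 highest and 8 lowest called members without overlap, the 3 highest and 3 lowest by FPKM, members failing the filter, and the 3 smallest adjusted p of each list. Some genes that this rule names are not reported here. Other members are given by range or were named after their values were seen. The p-values measure the spread between 3 biological replicates per group of 1 cell line, and if the numbers in the si-METTL16 titles name siRNAs, the spread in that group includes differences between siRNAs. Fixed alternatives were other filters, scalings, tests and thresholds, summed pseudogene rows, the replicate number as a block and each library left out. Annotation came from GENCODE v44 and start sites from RefSeq GRCh38.p14; for 23 of the 85 members GENCODE v44 and the table give equal start and end positions, so overlaps and introns can differ from those the authors used. Analyses used Python 3.11.15, numpy 2.4.6, pandas 2.3.3 and scipy 1.17.1.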

Additional observations from a re-analysis of the deposited data

How the results depend on the processing

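At a threshold of 0.01, 14 members were called, 5 higher and 9 lower. The share of all genes tested at 0.01 is not given here, so these counts cannot be set against it. Leaving out each library in turn gave 20 to 26 called members, with 6 to 11 higher and 13 to 16 lower, and without si-NC replicate 3 there were 6 higher. The called shares in these fits were 24.1% to 31.3% of the members and 26.9% to 29.4% of all genes tested. The median log2 fold change of the members was -0.028 in limma with a pseudocount of 1 FPKM and -0.028 with 0.1 FPKM. It was -0.028 with total counts and -0.036 with upper-quartile scaling, which moved the median of all genes to -0.026 and -0.033, and it lay between -0.027 and 2.5e-05 with single libraries left out. It is near 0 under each of these, and the cause of the shifts was not tested. The titles do not say whether the replicate numbers pair the libraries. Deviations of same-numbered libraries correlated only weakly across genes, at 0.04, 0.05 and 0.03, although each library correlated best with its own number. With the replicate block, 13 members were higher and 17 lower, in total 36.1% against 33.2% of all genes in the same fit. RPS26 (adjusted p = 0.0719) and RPL27 were lost under it and RPLP0 (0.0241) and RPL39 (0.0325) gained. RPS26 and RPL5 were also lost without the filter on low counts (adjusted p = 0.0735 and 0.059), RPS26 with upper-quartile scaling (0.0532), and RPL39 was gained in DESeq2 (0.0487). No call of a member was reversed under any alternative run. Of the 8 members with 3 or more intronic snoRNAs, all 8 stayed called lower under every alternative in the scaling, the test and the replicate block and 7 without the filter; this count was added after the data were seen. Reads shared between members and pseudogenes cannot be assigned from these files.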
